A study of Mus musculus with 9 samples.

Results

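The lungs of mice given copper oxide nanoparticles (CuO) were compared with those of mice given saline (control), across all genes measured. The comparison was chosen by the sample titles and takes 6 of the 9 libraries of the series, 3 of CuO lungs and 3 of control lungs, each from a different C57BL/6J mouse. CuO mice received the particles once into the trachea, in 100 µl of saline at 2 mg/mL. Control mice received 100 µl of saline by the same route. In a further group of 3 mice, CuO_TTM, mice had the same particles and drank water with 0.02 mg/mL of TTM, and these libraries entered the tests only as a source of the spread between mice. All lungs were taken on day 7. The labels do not say what TTM stands for, and they give neither sex nor age of the mice. The polyadenylated RNA of whole lung was sequenced in stranded libraries, so every value mixes all cell types of the organ.

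Inhaled metal oxide particles are taken up by alveolar macrophages, the resident phagocytes of the air spaces, and dissolve in part in their lysosomes. Injury to the alveolar epithelium is followed by recruitment of monocytes that mature into macrophages, by division of progenitor cells and fibroblasts, and by deposition of collagen and other matrix. Copper itself is bound by metallothioneins and carried by dedicated chaperones, and in excess it can oxidise lipids and damage proteins that hold iron and sulphur.

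Values are TPM, a transcript abundance that is divided by transcript length and scaled so that every library has the same sum, so sequencing depth is unknown and a level shows only a share of the library. Differences are of log2(TPM + 1), CuO minus control, and understate changes of low genes. Values of 3 lungs are always given in the order of replicates 1, 2 and 3. Lung markers were present throughout. Sftpc, the surfactant protein of alveolar type 2 cells, had 76791, 28381 and 55935 TPM in CuO lungs, against 45711, 54795 and 39066 TPM in control lungs, and Ager, which marks alveolar type 1 cells, had 1526, 1153 and 1919 TPM with CuO and 1427, 1583 and 1653 TPM in controls. Of 12 genes of muscle, thyroid, thymus, oesophagus and brown fat, 2 reached the abundance filter described next. The X-inactivation transcript Xist had at most 0.02 TPM and the Y-linked Ddx3y at least 20.4 TPM in each of the CuO and control lungs.

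The CuO library of replicate 1 stood apart from the other CuO lungs. Relative to the control mean, its median gene lay at -0.44 on the log2 scale, against 0.25 and 0.28 for CuO replicates 2 and 3 and between -0.07 and 0.08 for the controls. It was the lowest of all 9 libraries for 49.3% of genes. Its log2 values correlated with those of the other 8 libraries at 0.864 to 0.901 across genes, which describes the libraries only, since genes are not independent. Mitochondrially encoded transcripts made up 10.6%, 6.36% and 5.43% of the TPM in CuO lungs, and 10.6%, 7.81% and 7.86% in control lungs. Cytosolic ribosomal protein genes made up 11.6%, 9.97% and 7.23% in CuO lungs, and 6.63%, 7.89% and 8.30% in control lungs. CuO replicate 1 was thus the richest of the CuO lungs in both kinds of transcript.

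The deficit of CuO replicate 1 grew with transcript length. When the genes were split into 5 bins by their longest annotated transcript, its median difference from the control mean was 0.05 in the bin of the shortest transcripts, then -0.24, -0.45 and -0.60, and -0.82 in the bin of the longest. CuO replicates 2 and 3 lay between 0.16 and 0.32 in every bin, and the controls between -0.19 and 0.12. The cause of this trend was not tested, and RNA quality per library is not given in the labels. The fit was therefore repeated without CuO replicate 1, and with each library's trend on transcript length removed, a correction chosen after the trend was seen. Genes and lists below are given with all 3 CuO lungs unless stated. The median of a list is followed by its median without CuO replicate 1, and a count of genes without overlap by its count with the length trend removed where the counts differ by over 1.5 times.

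**Figure D1:**
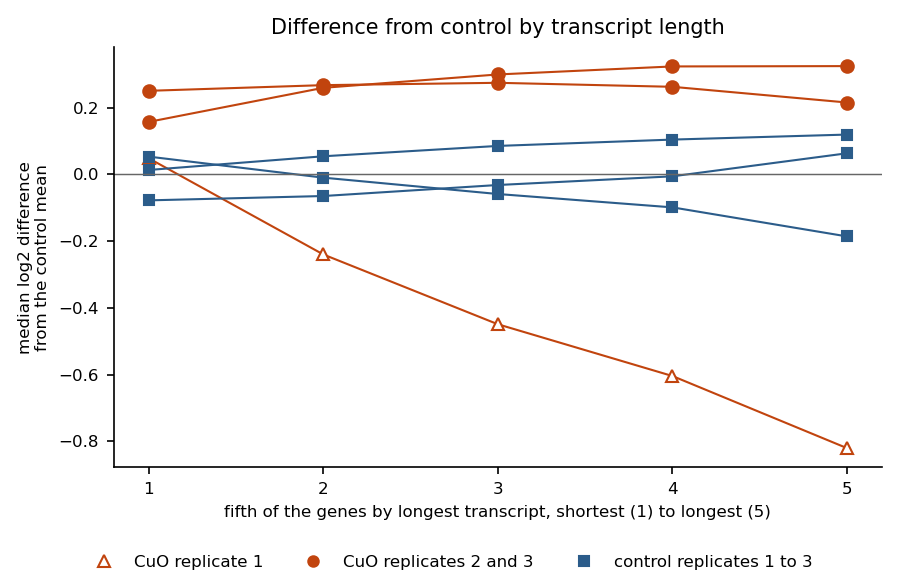
Median log2 difference from the mean of the 3 control libraries (vertical axis) in 5 bins of genes ordered by transcript length (horizontal axis, shortest to longest), with a line per library. CuO replicate 1 (open triangles) falls from 0.05 to -0.82 across the bins, while CuO replicates 2 and 3 (circles) stay between 0.16 and 0.32 and the controls (squares) between -0.19 and 0.12.

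Genes that reached 1 TPM in 3 or more of the libraries were tested, 15487 in all. Among them limma called no gene between CuO and control at a Benjamini-Hochberg adjusted p under 0.05, and the smallest adjusted p was 0.124. At an unadjusted p under 0.05, 846 genes (5.46%) were higher and 385 (2.49%) lower in CuO. Every CuO lung lay above every control lung for 1451 genes (9.37%), and every CuO lung below every control lung for 547 (3.53%). That split is a matter of scaling as well. With median-ratio scaling it was 1184 genes above (7.65%) and 1144 below (7.39%).

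Without CuO replicate 1, 35 genes were called and all 35 were higher in CuO (0.226% of genes, limma). Settings that took this count to 0 are given at the end. With the length trend removed from all 9 libraries, 28 genes were called higher (0.184%) and 6 lower (0.0394%) with every CuO lung kept, the lower ones being Ear1, Inmt, Ednrb, Dusp1, S1pr1 and a predicted gene, and for all 34 the CuO and control lungs did not overlap. The called sets of these fits shared 19 genes, which include mitotic genes (Cdk1, Plk1, Ccnb1, Cdca8, Top2a, Tpx2, Kif2c and Psrc1), collagen genes (Col1a1, Col1a2 and Col3a1) and genes of macrophages and lipid handling (Acp5 and Fabp5). CuO replicates 2 and 3 both lay above all controls for 5963 genes (38.5%), and CuO replicate 1 joined them in 1451 of these (24.3%) while it lay below all controls in 3532 (59.2%). Both lay below all controls for 761 genes (4.91%), and CuO replicate 1 joined them in 547 (71.9%). In the plot of CuO replicate 1 against the other CuO lungs, the mitotic genes lay to the right of 0, while interferon-stimulated genes lay at the lower right.

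**Figure D2:**
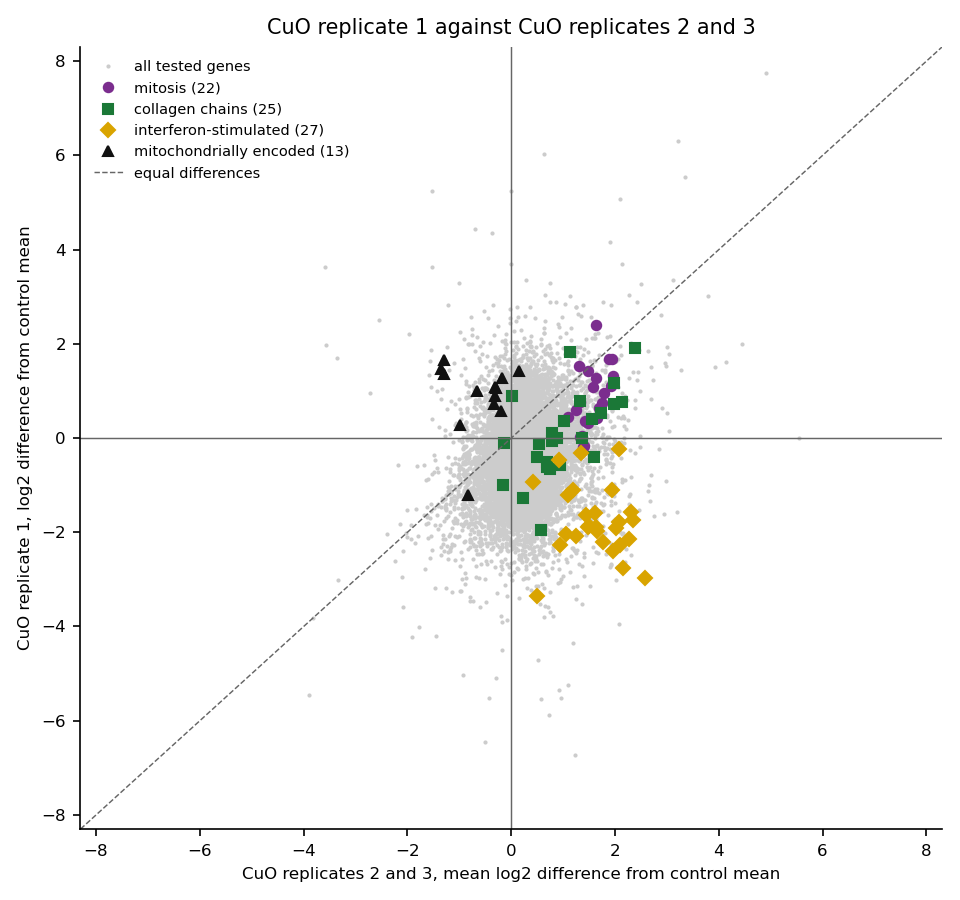
Log2 difference from the control mean in CuO replicate 1 (vertical axis) against the mean of the same difference in CuO replicates 2 and 3 (horizontal axis), with 1 point per tested gene and 4 gene lists in colour (numbers of genes in the key). The 22 mitosis genes lie to the right of 0, the interferon-stimulated genes lie at positive values on the horizontal axis and negative values on the vertical axis, and 12 of 13 mitochondrially encoded genes lie above 0 on the vertical axis.

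Genes of cell division were the most uniform group that lay higher in CuO lungs. All 22 genes of a mitosis list had a positive difference, with a median of 1.36 against 0.03 over all tested genes, and in 18 of them every CuO lung lay above every control lung, as in 9.37% of all tested genes. The opposite split held for 3.53% of all genes, and these shares are the background for each list. Without CuO replicate 1 the mitosis median was 1.53 and that of all genes 0.26. The median per library was 0.75, 1.47 and 1.70 in CuO lungs and 0.03, -0.00 and -0.04 in control lungs, so CuO replicate 1 was the lowest CuO lung but above every control. In bulk tissue, more dividing cells and more RNA per dividing cell cannot be told apart, and the same holds for every cell type named below.

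Cdk1, the kinase that drives cells into mitosis, had 60.7, 67.2 and 74.2 TPM in CuO lungs, against 17.3, 19.3 and 18.7 TPM in control lungs (log2 difference 1.81, SE 0.27, limma adjusted p = 0.124). Its partner cyclin gene Ccnb1 had 11.1, 16.2 and 19.9 TPM with CuO and 3.6, 3.65 and 4.33 TPM in controls (log2 difference 1.75, SE 0.30). Plk1, a kinase that acts from mitotic entry to division, had 10.1, 12.4 and 14.1 TPM in CuO lungs, against 3.25, 4.0 and 3.58 TPM in control lungs (log2 difference 1.51, SE 0.22). The groups were far apart for all of them, and the control lungs lay close together. With the length trend removed, Cdk1 rose by 1.82, Ccnb1 by 1.66 and Plk1 by 1.42 on the log2 scale (limma adjusted p = 0.0397, 0.0324 and 0.0238).

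Psrc1, which helps to move chromosomes on the spindle, had 10.6, 16.6 and 10.8 TPM with CuO and 1.36, 1.74 and 2.74 TPM in controls (log2 difference 2.21, SE 0.29). Cdca8, a subunit of the chromosomal passenger complex, had 13.9, 24.2 and 24.9 TPM in CuO lungs, against 5.94, 7.08 and 5.43 TPM in control lungs (log2 difference 1.58, SE 0.29). Aurka, the kinase of spindle poles, had 7.6, 14.6 and 18.3 TPM with CuO and 4.22, 4.23 and 4.02 TPM in controls (log2 difference 1.41, SE 0.31), and the CuO lungs 2 and 3 lay well above CuO replicate 1. Tpx2, which activates Aurora A, had 7.27, 16.7 and 20.2 TPM in CuO lungs, against 5.27, 5.14 and 5.01 TPM in control lungs, with CuO replicate 1 close to the controls. Top2a, the topoisomerase that untangles chromosomes, had 38.3, 50.2 and 59.5 TPM with CuO and 19.4, 17.5 and 15.9 TPM in controls, and Ube2c, which marks cyclins for destruction, had 85.7, 42 and 60.9 TPM with CuO and 13.5, 13.6 and 20.4 TPM in controls. Ube2c was highest in CuO replicate 1, unlike the other mitotic genes named here. Kif2c, Gtse1 and Nek2, which act on the spindle and at the centrosome, passed the test without CuO replicate 1 with log2 differences of 1.58, 1.51 and 1.499 (limma adjusted p = 0.0471, 0.0425 and 0.0475).

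The genes of DNA replication lay higher by less. The list median was 0.68, or 0.87 without CuO replicate 1, and all 20 genes had a positive difference. In 11 of them the groups did not overlap, all higher in CuO (against 9.37% of all genes). Tyms, which makes thymidylate, had 35.3, 32.7 and 22.9 TPM in CuO lungs, against 10.2, 8.27 and 12.8 TPM in control lungs (log2 difference 1.45, SE 0.28), and Tk1, which salvages thymidine, had 16.3, 19 and 17.8 TPM with CuO and 6.7, 5.38 and 7.76 TPM in controls (log2 difference 1.31, SE 0.24). Fen1, the flap endonuclease of lagging-strand synthesis, had 10.4, 15.4 and 13.7 TPM with CuO and 5.73, 7.9 and 8.05 TPM in controls, with the lowest CuO lung above the highest control. No gene of the replication list passed the test in any of the 3 fits described above.

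The promoters of mitotic genes are shown because these genes lay higher together. In many genes of mitosis, an element called CHR and nearby CCAAT boxes are the known landing sites of the complexes that switch them off in resting cells and on in dividing ones. The sequences are RefSeq windows on build GRCm38.p6, from 250 bases before to 50 after the annotated start, and capitals mark CHR letters (TTTGAA) and CCAAT letters on either strand. The windows are those of Cdk1 (chr10:69352863-69353162, minus strand), Plk1 (chr7:122159185-122159484, plus strand), Aurka (chr2:172370521-172370820, minus strand) and Cdca8 (chr4:124936868-124937167, minus strand).
Cdk1: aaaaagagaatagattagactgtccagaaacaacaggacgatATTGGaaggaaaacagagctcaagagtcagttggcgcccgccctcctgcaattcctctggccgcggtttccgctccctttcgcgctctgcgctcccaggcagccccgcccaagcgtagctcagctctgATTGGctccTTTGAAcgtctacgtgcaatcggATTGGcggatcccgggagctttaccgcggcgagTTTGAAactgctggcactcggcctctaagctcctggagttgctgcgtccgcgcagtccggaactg
Plk1: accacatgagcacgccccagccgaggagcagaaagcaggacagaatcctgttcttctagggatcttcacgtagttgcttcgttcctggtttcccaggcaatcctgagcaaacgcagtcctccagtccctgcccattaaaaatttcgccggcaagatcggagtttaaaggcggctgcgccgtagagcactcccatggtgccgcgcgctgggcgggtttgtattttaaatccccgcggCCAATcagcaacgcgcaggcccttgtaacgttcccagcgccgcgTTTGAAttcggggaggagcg
Aurka: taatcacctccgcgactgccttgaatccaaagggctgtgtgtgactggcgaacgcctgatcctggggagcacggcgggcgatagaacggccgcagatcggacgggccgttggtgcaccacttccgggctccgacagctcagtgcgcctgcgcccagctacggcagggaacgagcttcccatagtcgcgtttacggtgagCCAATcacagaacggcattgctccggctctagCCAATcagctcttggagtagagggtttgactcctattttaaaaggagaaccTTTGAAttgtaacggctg
Cdca8: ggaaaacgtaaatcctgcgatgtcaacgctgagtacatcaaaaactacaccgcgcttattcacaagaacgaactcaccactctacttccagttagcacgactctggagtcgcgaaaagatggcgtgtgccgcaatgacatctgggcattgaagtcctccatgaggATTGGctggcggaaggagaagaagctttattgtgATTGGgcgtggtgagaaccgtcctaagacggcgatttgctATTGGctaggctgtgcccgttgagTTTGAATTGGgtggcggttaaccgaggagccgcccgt
The search took TTTGAA or its reverse complement TTCAAA as CHR, and CCAAT or ATTGG as a CCAAT box, and in Cdca8 the end of the CHR letters overlaps the last CCAAT match. Windows were found for 18 of the 22 mitosis genes, and 13 of these (72.2%) held both motifs, against 804 of 11101 tested genes with a window (7.24%). CHR alone was in 72.2% of the mitosis windows and 14.9% of all windows, and a CCAAT box in 88.9% and 42.5%. Among 17 replication genes with a window, 11.8% held both. A match is a description of the letters and shows no binding.

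Genes of the extracellular matrix formed the next group, led by fibrillar collagen. Col1a1, the main chain of type I collagen, had 223, 339.8 and 282 TPM in CuO lungs, against 64.1, 58.6 and 53.1 TPM in control lungs (log2 difference 2.23, SE 0.27, limma adjusted p = 0.124). Col1a2, its partner chain, had 266, 490.2 and 451 TPM with CuO and 123, 127 and 105 TPM in controls (log2 difference 1.71, SE 0.29), and Col3a1, the type III chain, had 425, 1130.5 and 938 TPM with CuO and 273, 292 and 217 TPM in controls (log2 difference 1.56, SE 0.36). The lowest CuO lung was replicate 1 for all of them, and it still lay above every control. All 3 genes rose without CuO replicate 1, by 2.38, 1.99 and 1.99 (limma adjusted p = 0.0387 each), and with the length trend removed, by 2.30, 1.77 and 1.62 (limma adjusted p = 0.0207, 0.0207 and 0.0268).

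Of 25 collagen chain genes tested, 8 had every CuO lung above every control (against 9.37% of all genes) and none the reverse, and the median difference was 0.56. That median was 0.89 without CuO replicate 1, where the median of all genes is 0.26. With the length trend removed, 15 of the 25 lay above all controls (against 8.13% of all genes) and 5 were called. Beside type I and type III these were Col5a1 and Col5a2, chains of type V collagen, which starts fibrils in tissues, with log2 differences of 1.42 and 1.76 (limma adjusted p = 0.0396 each); they were named after their values were seen.

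Elastic fibre genes also lay higher. Eln, which encodes tropoelastin, the core of elastic fibres, had 1159, 451 and 1552 TPM in CuO lungs, against 127, 168 and 178 TPM in control lungs (log2 difference 2.57, SE 0.46, limma adjusted p = 0.136), and CuO replicate 2 lay closest to the controls. Efemp2, a fibulin needed to assemble elastin, had 48, 44.6 and 45.9 TPM with CuO and 21.3, 23.8 and 21.1 TPM in controls (log2 difference 1.03, SE 0.23), and Emilin1, a glycoprotein of the elastin surface, had 72.8, 59.9 and 55.9 TPM with CuO and 24.5, 35.4 and 35.7 TPM in controls. The CuO lungs agreed closely for Efemp2, with no overlap. Of 19 elastic fibre and crosslinking genes, 8 lay above all controls (against 9.37% of all genes) and 1 below (against 3.53% of all genes), with a median of 0.82, and 0.89 without CuO replicate 1.

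Among matricellular glycoproteins, which shape how cells hold on to the matrix, Tnc had 26, 34.8 and 29.6 TPM in CuO lungs, against 3.61, 4.0 and 2.83 TPM in control lungs (log2 difference 2.80, SE 0.60). Thbs2, a thrombospondin that binds matrix proteases, had 3.27, 9.83 and 6.14 TPM with CuO and 0.65, 0.64 and 0.55 TPM in controls, and rose by 2.17 with the length trend removed (limma adjusted p = 0.0324). Fmod, a small proteoglycan of collagen fibrils, had 13.6, 14.4 and 22 TPM with CuO and 4.17, 4.94 and 1.64 TPM in controls (log2 difference 2.00, SE 0.42). In all of them every CuO lung lay above every control. In the whole list this held for 10 of 19 (against 9.37% of all genes), with none the reverse, and the median was 0.75, or 1.12 without CuO replicate 1. Fn1, which encodes fibronectin, had 197, 422 and 463 TPM in CuO lungs, against 90.1, 113 and 98.6 TPM in control lungs (log2 difference 1.74, SE 0.51), and Spp1, the secreted phosphoprotein osteopontin of macrophages and epithelium, had 464, 1257 and 966 TPM with CuO and 81.9, 75.6 and 383 TPM in controls (log2 difference 2.62, SE 0.77), where control replicate 3 came near the lowest CuO lung.

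Proteases that cut matrix were less even. Mmp14, a membrane-bound collagenase, had 53.9, 165 and 116 TPM in CuO lungs, against 28.1, 33.6 and 46.3 TPM in control lungs and rose by 1.94 without CuO replicate 1 (limma adjusted p = 0.0475). Mmp12, the elastase of macrophages, had 9.44, 66 and 36.9 TPM with CuO and 5.52, 6.31 and 5.35 TPM in controls (log2 difference 2.15, SE 0.73), with CuO replicate 1 just above the controls. Adamts12 had 1.28, 7.31 and 7.41 TPM with CuO and 0.85, 0.91 and 0.51 TPM in controls, and Hpse, which cleaves heparan sulphate, had 7.14, 30.2 and 23.4 TPM with CuO and 3.98, 5.96 and 5.51 TPM in controls. CuO replicate 1 was the lowest CuO lung for all these genes. The list of 21 had a median of 0.64 (0.96 without CuO replicate 1) and 6 genes without overlap, all higher in CuO (against 9.37% of all genes), but CuO replicate 1 lay below all controls in 8 of its genes (against 58.7% of all tested genes). The myofibroblast and TGF-beta list had a median of 0.28, and 0.56 without CuO replicate 1. In 4 of its 20 genes every CuO lung lay above every control (against 9.37% of all genes), and in 2 with the length trend removed (against 8.13% of all genes). The markers of fibroblasts, pericytes and smooth muscle had a median of -0.19, and -0.00 without CuO replicate 1. Of these 18 genes, 2 lay above all controls (against 9.37% of all genes) and 1 below (against 3.53% of all genes), shares near those of all genes. With the length trend removed the counts were 0 above (against 8.13% of all genes) and 2 below (against 8.3%).

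**Figure D3:**
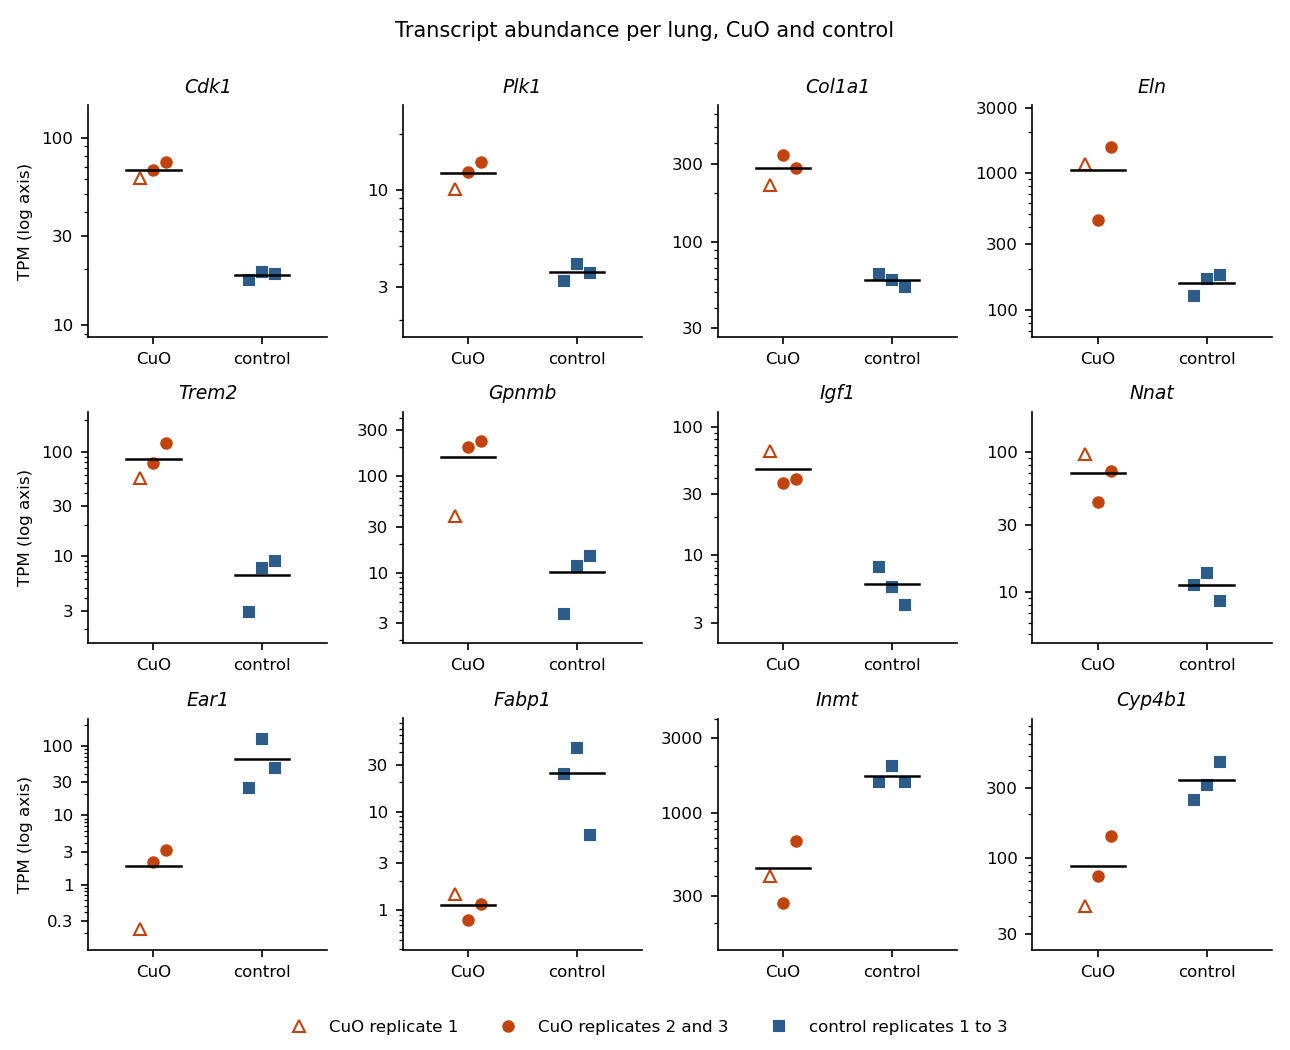
TPM (log axis) of 12 genes in each CuO lung (left, replicate 1 as an open triangle) and each control lung (right, squares), with a black bar at the mean of 3 lungs. The first 8 genes are higher and the last 4 lower in every CuO lung than in every control lung, for example Col1a1 with 223 to 339.8 TPM against 53.1 to 64.1 TPM and Ear1 with 0.23 to 3.20 TPM against 24.9 to 124 TPM.

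In macrophages, genes of the lipid-laden state lay higher and some genes of resident alveolar cells lower. Trem2, a receptor for lipids and cell debris, had 55.7, 77.2 and 120.1 TPM in CuO lungs, against 2.92, 7.76 and 8.97 TPM in control lungs (log2 difference 3.54, SE 0.57, limma adjusted p = 0.133), and with the length trend removed it rose by 3.57 (limma adjusted p = 0.0401). Gpnmb, a glycoprotein of macrophages loaded with lipid, had 38.4, 199 and 231 TPM with CuO and 3.71, 11.7 and 14.9 TPM in controls (log2 difference 3.63, SE 0.76), and without CuO replicate 1 it rose by 4.45 (limma adjusted p = 0.0475). CuO replicate 1 was the lowest CuO lung for both, yet well above the controls.

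Acp5, an acid phosphatase of macrophages and osteoclasts, had 60.3, 65.9 and 78.3 TPM in CuO lungs, against 15.2, 18.7 and 24.1 TPM in control lungs (log2 difference 1.78, SE 0.26), and Fabp5, a fatty acid carrier, had 355, 474 and 471 TPM with CuO and 167, 165 and 134 TPM in controls (log2 difference 1.47, SE 0.24). Both passed the test without CuO replicate 1 and with the length trend removed (limma adjusted p = 0.0425 and 0.0401 for Acp5, 0.0425 and 0.0413 for Fabp5). In the list of 20 lipid-laden macrophage genes the median was 1.12 (1.28 without CuO replicate 1), and 10 did not overlap, all of them higher in CuO (against 9.37% of all genes). Clec4n, the receptor dectin-2, had 65, 139 and 137 TPM with CuO and 8.44, 29.5 and 17.1 TPM in controls, and Arg1, the arginase of alternative activation, had 52.4, 61.2 and 32 TPM with CuO and 1.48, 1.74 and 20.3 TPM in controls, with control replicate 3 high among the controls. The alternative activation list, which holds Arg1, lay on both sides of control. Its 16 genes had a median of -0.03 (0.09 without CuO replicate 1), with 8 positive differences. Arg1 and Fn1, given above, were the 2 above all controls (against 9.37% of all genes), and 1 gene lay below (against 3.53% of all genes).

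Lysosomal genes lay higher across the list, with a positive difference in all 28 and a median of 0.78 (1.03 without CuO replicate 1). Ctsd, a lysosomal protease, had 891, 1285 and 2285 TPM in CuO lungs, against 251, 507 and 302 TPM in control lungs (log2 difference 2.03, SE 0.44), Ctsz, another cathepsin, had 343, 474 and 367 TPM with CuO and 106, 139 and 213 TPM in controls (log2 difference 1.41, SE 0.29), and Hexa, which degrades gangliosides, had 106, 137 and 203 TPM with CuO and 50.4, 76.9 and 55.7 TPM in controls. Each was above all controls in every CuO lung. The counts show how far this rests on CuO replicates 2 and 3, which lay above all controls for 27 of 28 genes (against 38.5% of all genes). CuO replicate 1 lay above all controls for 11 (against 20.9% of all genes) and below all controls for 11 (against 58.7%). Ctsb, a cathepsin that passed the test without CuO replicate 1 (limma adjusted p = 0.0489), had 192, 966 and 891 TPM with CuO and 199.8, 252 and 352 TPM in controls, with CuO replicate 1 just under every control.

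Monocyte and interstitial macrophage genes lay higher in part. C1qa and C1qb, chains of complement C1q made by tissue macrophages, had 235, 305 and 290.1 TPM in CuO lungs, against 48.3, 61.7 and 146 TPM in control lungs and 199, 249 and 267 TPM with CuO and 38.4, 56 and 116 TPM in controls, in that order. Ms4a7, a membrane protein of recruited macrophages, had 22.7, 78.2 and 52.5 TPM with CuO and 4.43, 5.89 and 13.9 TPM in controls and rose by 2.98 without CuO replicate 1 (limma adjusted p = 0.0493). Control replicate 3 was the highest control for all of them. The 17 genes of the list had a median of 0.34, and 0.98 without CuO replicate 1, and 5 did not overlap, all higher in CuO (against 9.37% of all genes).

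Genes of resident alveolar macrophages lay lower in CuO in part. Of 16, 10 had a negative and 6 a positive difference. The list median was -1.98, -0.81 and 0.11 in CuO lungs and -0.54, 0.81 and -0.37 in control lungs, so CuO replicate 3 lay above control replicates 1 and 3. Ear1, an eosinophil-associated ribonuclease made by these cells, had 0.23, 2.12 and 3.2 TPM in CuO lungs, against 24.9, 124 and 48 TPM in control lungs (log2 difference -4.42, SE 0.68, limma adjusted p = 0.133), the largest difference among the genes named here, and it fell by 4.59 with the length trend removed (limma adjusted p = 0.0449). Reads of Ear1 can be shared with its close family members, so its level is uncertain. Fabp1, a fatty acid carrier, had 1.46, 0.79 and 1.16 TPM with CuO and 24.1, 44.2 and 5.87 TPM in controls (log2 difference -3.23, SE 0.61), and Krt79, a keratin expressed by alveolar macrophages in mice, had 0.56, 0.98 and 0.83 TPM with CuO and 3.7, 13.4 and 3.28 TPM in controls. The CuO lungs were uniformly low for Fabp1 and Krt79. Marco, a scavenger receptor for particles, had 0.68, 0.67 and 4.37 TPM in CuO lungs, against 5.31, 11.4 and 4.21 TPM in control lungs, where CuO replicate 3 lay just above the lowest control. The median difference was -0.89, 5 of 16 genes were below all controls in every CuO lung (against 3.53% of all genes), and without CuO replicate 1 the median was -0.35.

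**Figure D4:**
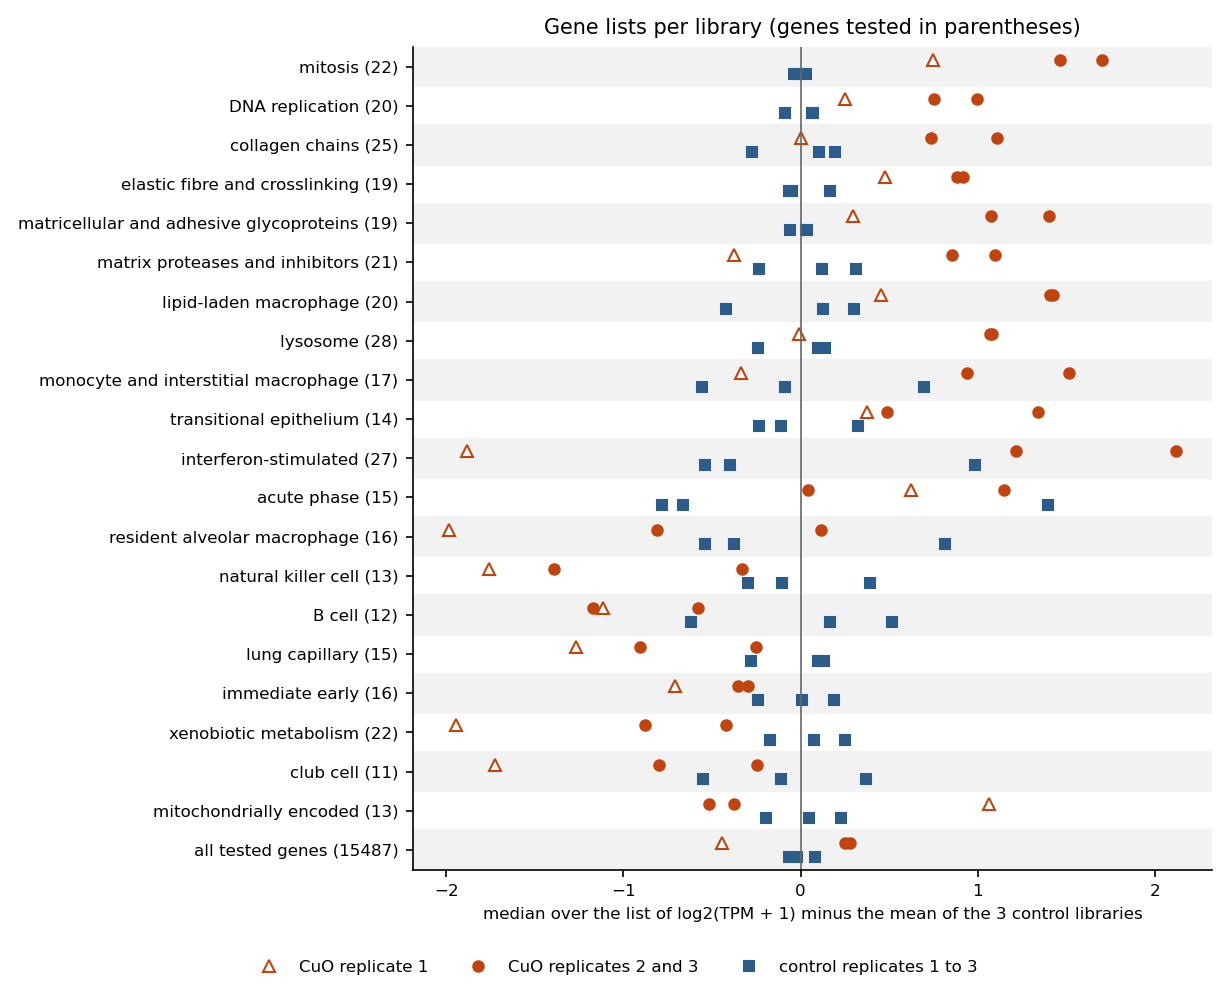
Median over each gene list of log2(TPM + 1) minus the mean of the 3 control libraries (horizontal axis), for each CuO lung (upper marks, replicate 1 as an open triangle) and each control lung (lower marks), with the number of tested genes in parentheses. Mitosis separates the CuO lungs from the controls at 0.75 to 1.70 against -0.04 to 0.03, while the interferon-stimulated list spreads the CuO lungs from -1.88 to 2.12 and the controls from -0.54 to 0.99.

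The growth factor genes Igf1 and Mdk and the imprinted gene Nnat were among the leading differences. Igf1, the insulin-like growth factor made by macrophages and fibroblasts, had 65, 36.3 and 39 TPM in CuO lungs, against 8.17, 5.72 and 4.14 TPM in control lungs (log2 difference 2.76, SE 0.38, limma adjusted p = 0.124). Mdk, the heparin-binding growth factor midkine, had 132, 38 and 51.5 TPM with CuO and 7.86, 11.1 and 9.13 TPM in controls (log2 difference 2.66, SE 0.42). Nnat, an imprinted gene of the endoplasmic reticulum membrane, had 96, 43.8 and 72.9 TPM with CuO and 11.2, 13.5 and 8.51 TPM in controls (log2 difference 2.53, SE 0.34). CuO replicate 1 was the highest of the 6 lungs for these genes, in contrast to the collagen and macrophage genes. Nnat passed the test without CuO replicate 1 and with the length trend removed (limma adjusted p = 0.0475 and 0.0449), and Mdk without CuO replicate 1 (limma adjusted p = 0.0387).

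H19, an imprinted transcript of embryonic growth, had 7.39, 7.5 and 9.06 TPM in CuO lungs, against 1.84, 1.2 and 0.65 TPM in control lungs (log2 difference 2.04, SE 0.45), while the imprinted list as a whole had a median of 0.15 (0.44 without CuO replicate 1) and 2 of 11 genes above all controls (against 9.37% of all genes). Grem1, an antagonist of bone morphogenetic proteins, had 2.33, 20.8 and 5.42 TPM with CuO and 0.34, 0.17 and 0.19 TPM in controls, and its CuO lungs spread widely. C1qtnf6, a secreted protein related to C1q, had 28.8, 25 and 30.3 TPM with CuO and 8.06, 7.14 and 8.23 TPM in controls (log2 difference 1.72, SE 0.24) and was called in both of the other fits (limma adjusted p = 0.0471 without CuO replicate 1 and 0.0419 with the length trend removed). Islr, a secreted protein of mesenchymal cells, had 15.8, 21 and 18.3 TPM in CuO lungs, against 7.75, 6.65 and 5.92 TPM in control lungs and was called in both as well. Lhfpl2, Lrp12 and Zranb3 were also called in both fits, with log2 differences of 2.00, 1.48 and 1.40 with the length trend removed. Pdgfrl and Spsb4 were called without CuO replicate 1 (2.24 and 1.57) and not with the length trend removed, though CuO replicate 1 lay above all controls for both genes.

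Interferon and acute phase genes did not separate the groups, and few chemokine genes did. They varied within both groups, and CuO replicate 1 was at the low end for interferon genes. In none of the 27 interferon-stimulated genes did every CuO lung lie above or below every control. The list median was -1.88, 2.12 and 1.22 in CuO lungs and -0.40, -0.54 and 0.99 in control lungs. CuO replicate 1 was the lowest of 9 libraries for 20 of the 27 (against 49.3% of all genes).

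Rsad2, the antiviral enzyme viperin, had 2.04, 317 and 63.1 TPM in CuO lungs, against 17.6, 14.2 and 47.3 TPM in control lungs. Ifit2, which restrains the translation of viral RNA, had 4.46, 388 and 67.8 TPM with CuO and 25.1, 15.2 and 116 TPM in controls, and Isg15, a ubiquitin-like modifier, had 179.6, 1174 and 679 TPM with CuO and 146, 103 and 611 TPM in controls. CuO replicate 2 was the highest lung, CuO replicate 3 next for Rsad2 and Isg15, and control replicate 3 the highest control. Without CuO replicate 1 the list median was 1.63 and 19 genes did not overlap (against 38.5% of all genes), but none was called. The windows around the starts of Rsad2 (chr12:26456403-26456702, minus strand) and Isg15 (chr4:156200769-156201068, minus strand) are shown for this group, with capitals at matches to the core letters of the interferon-stimulated response element, GAAA, then 2 bases of any kind, then GAAA, on either strand. The matches overlap each other in Isg15.
Rsad2: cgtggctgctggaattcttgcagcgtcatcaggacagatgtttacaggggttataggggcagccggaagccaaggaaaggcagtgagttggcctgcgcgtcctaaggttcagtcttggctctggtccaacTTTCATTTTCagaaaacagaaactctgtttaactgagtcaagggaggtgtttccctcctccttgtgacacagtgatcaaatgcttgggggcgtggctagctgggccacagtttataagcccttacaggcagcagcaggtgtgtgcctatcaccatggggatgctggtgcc
Isg15: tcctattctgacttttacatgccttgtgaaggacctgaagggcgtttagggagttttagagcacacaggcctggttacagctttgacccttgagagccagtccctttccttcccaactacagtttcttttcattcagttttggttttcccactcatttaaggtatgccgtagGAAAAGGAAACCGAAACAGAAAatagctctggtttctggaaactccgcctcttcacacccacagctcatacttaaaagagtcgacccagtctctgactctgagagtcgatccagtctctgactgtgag
Of 21 interferon-stimulated genes with a window, 13 (61.9%) held the core, against 446 of 11101 tested genes (4.02%).

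Most chemokine and acute phase genes varied with single lungs. Of 32 chemokine genes, 1 lay above all controls (against 9.37% of all genes) and 3 below (against 3.53% of all genes). With the length trend removed 2 lay above (against 8.13% of all genes). The list median was 0.62, and 1.25 without CuO replicate 1. Cxcl10, a chemokine that draws activated T cells, had 15.6, 1130.3 and 52 TPM in CuO lungs, against 28.1, 13.6 and 280.4 TPM in control lungs. Ccl2, which draws monocytes, had 5.09, 444 and 20.1 TPM with CuO and 11.7, 3.99 and 85.7 TPM in controls, and Cxcl13, which draws B cells, had 1.79, 353 and 11.2 TPM with CuO and 3.96, 2.68 and 33.5 TPM in controls. CuO replicate 2 was the highest and control replicate 3 the second highest of the 6 lungs for these genes. Saa3, a serum amyloid A protein made in inflamed lung, had 328, 8171 and 381 TPM in CuO lungs, against 15.2, 30.8 and 2987 TPM in control lungs (log2 difference 3.13, SE 1.94), and Lcn2, which binds bacterial iron carriers, had 909, 2591 and 1277 TPM with CuO and 150.5, 203 and 1732 TPM in controls. CuO replicates 1 and 3 lay above control replicates 1 and 2 for both, but control replicate 3 lay above them. Of 15 acute phase genes none separated the groups, the median difference was 0.25 (0.52 without CuO replicate 1), and the median of control replicate 3 (1.40) was above that of every CuO lung.

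**Figure D5:**
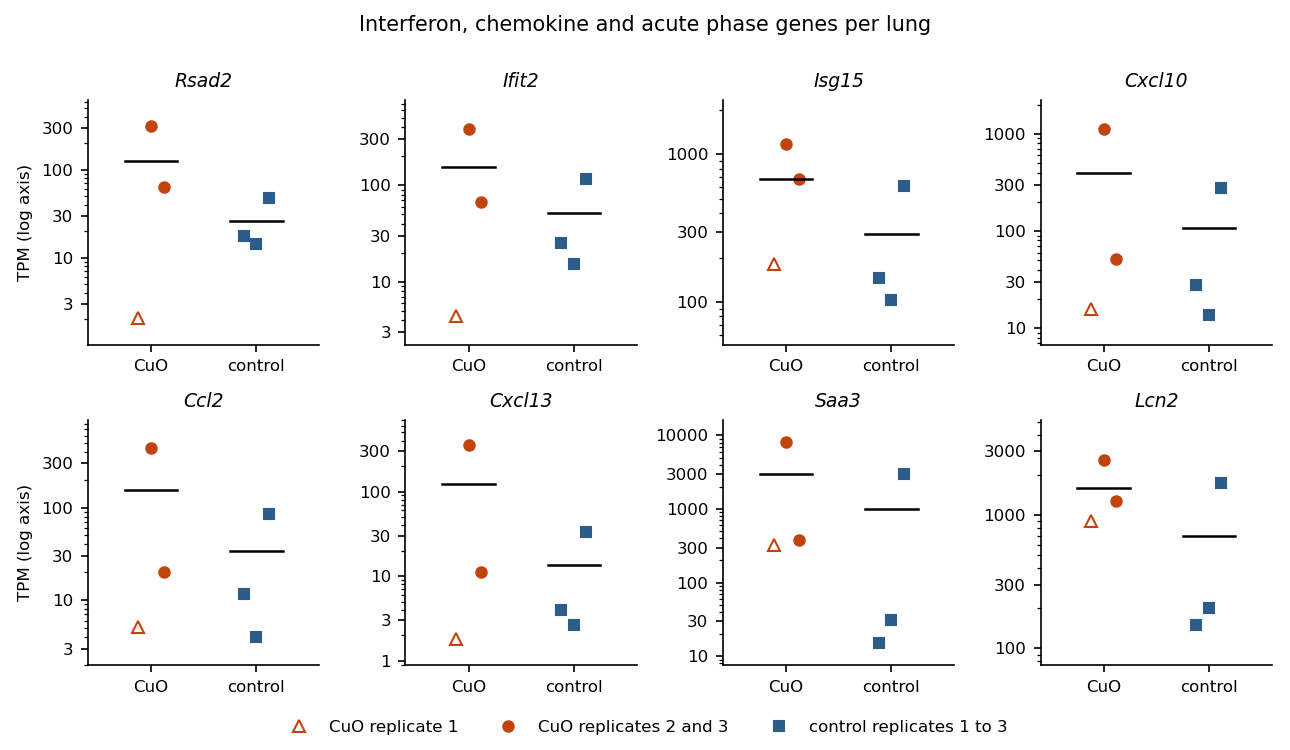
TPM (log axis) of 8 interferon, chemokine and acute phase genes in each CuO lung (left, replicate 1 as an open triangle) and each control lung (right, squares), with a black bar at the mean of 3 lungs. The groups overlap for every gene shown, with CuO replicate 2 highest and control replicate 3 the highest control.

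Some chemokine, cytokine and complement genes were more even. Ccl21a, a chemokine of lymphatic vessels, had 775, 328 and 323 TPM in CuO lungs, against 126, 149 and 112 TPM in control lungs (log2 difference 1.75, SE 0.40), and reads of it may be shared with its near-identical copies. Csf2, the growth factor of alveolar macrophages, had 10.8, 19.9 and 7.99 TPM with CuO and 3.87, 5.77 and 5.86 TPM in controls. Pycard, the adaptor of inflammasomes, had 70.5, 54.5 and 35.6 TPM with CuO and 11, 15.5 and 32.5 TPM in controls. Of 23 cytokine and inflammasome genes, only these 2 lay above all controls, a share near that of all genes (9.37%), and none lay below. The list median was -0.51, 1.17 and 0.13 in CuO lungs and -0.44, -0.075 and 0.48 in control lungs, so the groups overlapped. Its median difference was 0.21 (0.73 without CuO replicate 1). Cx3cl1, the membrane-bound chemokine fractalkine, had 5.8, 8.07 and 13.6 TPM with CuO and 14.2, 17.6 and 15 TPM in controls and lay lower in every CuO lung. Cfp, the complement activator properdin, had 36.4, 33.5 and 31.6 TPM in CuO lungs, against 8.4, 14.8 and 13.1 TPM in control lungs (log2 difference 1.44, SE 0.25), and Clu, a chaperone that restrains complement, had 229, 683 and 372 TPM with CuO and 108, 154 and 156 TPM in controls (log2 difference 1.49, SE 0.43). Of 18 complement genes, 3 did not overlap, all higher (against 9.37% of all genes), and the median was 0.24, or 0.77 without CuO replicate 1. Fcgr2b, the inhibitory Fc receptor, had 59.3, 123 and 106 TPM with CuO and 17.7, 29.7 and 65 TPM in controls, so the groups overlapped.

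Among lymphocytes, most markers of natural killer and B cells had a negative difference in CuO. All 13 natural killer cell genes had a negative difference, with a median of -1.11 (-0.79 without CuO replicate 1), and 6 did not overlap (against 3.53% of all genes). Per lung the list median was -1.76, -0.33 and -1.39 in CuO lungs and -0.30, -0.10 and 0.39 in control lungs. CuO replicate 2 was thus close to control replicate 1. Klrb1c, the receptor NK1.1, had 0.94, 3.45 and 2.99 TPM in CuO lungs, against 8.57, 9.94 and 11.1 TPM in control lungs (log2 difference -1.73, SE 0.46), Klra8, a receptor of the Ly49 family, had 1.1, 1.86 and 0.98 TPM with CuO and 5.07, 4.84 and 10.8 TPM in controls, and Nkg7, a granule protein, had 15.2, 35.6 and 16.5 TPM with CuO and 35.7, 54.8 and 80.0 TPM in controls. The CuO lungs were lower in each, and CuO replicate 1 was the lowest for Klrb1c and Nkg7. None passed the test in any of the 3 fits.

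B cell genes had a median of -0.96 over 12 genes (-0.88 without CuO replicate 1), of which 3 lay below all controls (against 3.53% of all genes) and 5 with the length trend removed (against 8.3% of all genes). Per lung the list median was -1.11, -0.58 and -1.17 in CuO lungs and 0.51, 0.165 and -0.62 in control lungs. Control replicate 3 thus lay below CuO replicate 2, and the groups overlapped. Cd79a and Cd79b, the signalling chains of the B cell receptor, had 7.95, 8.75 and 6.65 TPM in CuO lungs, against 30.1, 27.1 and 10.8 TPM in control lungs and 12.2, 11.3 and 11.5 TPM with CuO and 33.2, 25.6 and 15.1 TPM in controls, in that order, with control replicate 3 close to the CuO lungs. T cell genes did not separate as a list. Their median was -0.92, 0.49 and -0.43 in CuO lungs and -0.16, 0.04 and 0.01 in control lungs, so CuO replicate 2 lay above every control. The median difference was -0.31 (-0.14 without CuO replicate 1), and 2 of 20 genes lay below all controls (against 3.53% of all genes), or 5 with the length trend removed (against 8.3%). Cd8b1, a chain of the CD8 co-receptor, had 3.6, 14.2 and 4.21 TPM with CuO and 13.1, 14.6 and 14.8 TPM in controls, where CuO replicate 2 lay among the controls. Plasma cell genes showed no common direction, with a median of -0.22, and 0.10 without CuO replicate 1. Igkc, the kappa light chain constant gene, had 638, 408 and 842 TPM in CuO lungs, against 364, 327 and 343 TPM in control lungs, and 4 variable segments, Ighv8-8, Ighv8-5, Ighv1-12 and Igkv10-96, were called higher without CuO replicate 1. Of these segments, 3 were listed at 0 TPM in CuO replicate 1, and reads of such segments can be shared between near-identical copies.

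Neutrophil markers had a negative difference in 11 of 14 genes, but 1 lay below all controls (against 3.53% of all genes). The median difference was -0.74 (-0.47 without CuO replicate 1). Per lung the list median was -1.18, -0.21 and -0.88 in CuO lungs and -0.99, 0.12 and 0.76 in control lungs, so the groups overlapped. Ly6g, which defines mouse neutrophils, had 0.56, 1.27 and 0.86 TPM in CuO lungs, against 2.02, 3.38 and 6.56 TPM in control lungs, so every CuO lung was below every control for this single gene, and Retnlg had 37.5, 47.9 and 39.4 TPM with CuO and 39.4, 138 and 433 TPM in controls. The MHC class I list had a median of 0.01 and the class II list -0.03, and without CuO replicate 1 they had 0.44 and -0.080. Ifi30, the thiol reductase that prepares antigens in lysosomes, had 223, 272 and 258 TPM with CuO and 86.8, 136 and 197 TPM in controls, and Clec9a, a receptor of cross-presenting dendritic cells, had 4.16, 6.84 and 9.17 TPM with CuO and 12.9, 10.5 and 18.2 TPM in controls. The first lay higher and the second lower in every CuO lung. Batf3, also of the dendritic cell list, lay higher in every CuO lung. It had 4.58, 4.92 and 5.14 TPM with CuO and 1.61, 3.52 and 2.51 TPM in controls. The dendritic cell list was divided, with 7 positive and 7 negative differences. Its median was -0.03 (0.036 without CuO replicate 1).

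In the epithelium, the club cell protein Scgb1a1 was the largest single item of every control library. It had 122847, 68974 and 106196 TPM in CuO lungs, against 225294, 187201 and 173301 TPM in control lungs, which is 12.3%, 6.90% and 10.6% of all TPM in CuO lungs and 22.5%, 18.7% and 17.3% in control lungs. Every CuO lung lay below every control (log2 difference -1.01, SE 1.14), and the CuO_TTM lungs, which enter this SE, had 8.17%, 0.18% and 0.35%. Gsta3, a glutathione transferase of club cells, had 12.2, 52.1 and 72.7 TPM with CuO and 205, 190.4 and 248 TPM in controls (log2 difference -2.52, SE 0.57), and Aldh1a1, a retinal dehydrogenase, had 91.2, 381 and 526 TPM with CuO and 894, 686 and 590.3 TPM in controls. For both, CuO replicate 1 was the lowest lung. The 11 club cell genes had a median of -0.93 (-0.50 without CuO replicate 1), with 3 below all controls (against 3.53% of all genes). Of the 11, 7 had a negative and 4 a positive difference. Per lung the list median was -1.73, -0.80 and -0.24 in CuO lungs and 0.37, -0.11 and -0.55 in control lungs, so the groups overlapped. Ciliated cell genes had a median of -0.20 (0.036 without CuO replicate 1), and none separated the groups. With the length trend removed 1 lay below all controls (against 8.3% of all genes).

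Alveolar lists had medians near the control level. The type 2 list had a median of 0.06 (0.36 without CuO replicate 1). It was negative with quantile normalization (-0.076), with Scgb1a1 left out of the total (-0.10) and with the length trend removed (-0.062), and 0.034 with median-ratio scaling. The type 1 list had a median of -0.16, and 0.0090 without CuO replicate 1. Sftpd, a surfactant collectin, had 1556, 1621 and 1723 TPM in CuO lungs, against 806, 946 and 1355 TPM in control lungs, and Muc1, a membrane mucin, had 209.6, 139 and 240.3 TPM with CuO and 107, 101 and 105 TPM in controls. Both were higher in every CuO lung. Among type 1 genes, Aqp5, a water channel, had 478, 289.8 and 284 TPM with CuO and 223, 209 and 172 TPM in controls and lay higher, while Hopx, a homeodomain regulator, had 474, 310.2 and 492 TPM with CuO and 615, 616 and 691 TPM in controls and lay lower. Genes of the transitional state between type 2 and type 1 cells lay higher, with a median of 0.85 (0.94 without CuO replicate 1). Of 14, 7 lay above all controls (against 9.37% of all genes), but with the length trend removed 3 did (against 8.13% of all genes). Cldn4, a tight junction protein of that state, had 7.05, 27.8 and 5.98 TPM in CuO lungs, against 3.31, 1.8 and 4.09 TPM in control lungs, Itgb6, which activates TGF-beta, had 20.5, 36.9 and 60.0 TPM with CuO and 15.9, 18.2 and 12.5 TPM in controls, and Lgals3, a lectin that macrophages also make, had 415, 485 and 209 TPM with CuO and 75.2, 131 and 182 TPM in controls.

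Xenobiotic metabolism was the list with the most negative median, -1.19, and 9 of its 22 genes lay below all controls in every CuO lung (against 3.53% of all genes). Cyp4b1, a cytochrome P450 of the lung, had 46.9, 74.9 and 142 TPM in CuO lungs, against 251, 317 and 449.9 TPM in control lungs (log2 difference -2.04, SE 0.42, limma adjusted p = 0.184). Fmo1, a flavin-containing monooxygenase, had 78, 85.1 and 126 TPM with CuO and 196, 265 and 219 TPM in controls (log2 difference -1.25, SE 0.25), and Gstm1, a glutathione transferase, had 197, 134 and 256 TPM with CuO and 445, 457 and 400.01 TPM in controls (log2 difference -1.19, SE 0.27). The groups were clearly apart for each. Many of these enzymes are made by club cells, whose 11 listed genes had 7 negative and 4 positive differences. The part of club cells in this result was not tested. Without CuO replicate 1 the list median was -0.76, and the same count of 9 lay below all controls (against 4.91% of all genes). In that fit the medians of red cell and platelet (-0.93), B cell (-0.88) and natural killer cell genes (-0.79) were more negative.

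Most markers of lung capillaries lay lower as well. Ednrb, the endothelin receptor of aerocytes, had 6.41, 7.91 and 19 TPM in CuO lungs, against 40.3, 34.6 and 38 TPM in control lungs (log2 difference -1.81, SE 0.36), and it fell by 1.82 with the length trend removed (limma adjusted p = 0.0419). S1pr1, the sphingosine phosphate receptor of endothelium, fell by 1.22 in that fit (limma adjusted p = 0.045) and had 45.8, 81.8 and 112 TPM with CuO and 161, 182 and 163 TPM in controls; it was named after its values were seen. Prx, a scaffold protein, had 30.5, 33.3 and 81.8 TPM with CuO and 92.5, 101 and 107 TPM in controls, and Fibin, a secreted protein, had 12, 14.3 and 29.6 TPM with CuO and 40.6, 43.3 and 85.1 TPM in controls. CuO replicate 3 was the nearest to the controls in all of these genes. Of 15 capillary genes, 13 had a negative and 2 a positive difference, with a median of -0.82, and -0.57 without CuO replicate 1. In 6 every CuO lung was below all controls (against 3.53% of all genes), and in 1 above (against 9.37%, and 0 genes with the length trend removed). Per lung the list median was -1.27, -0.91 and -0.25 in CuO lungs and 0.10, 0.13 and -0.28 in control lungs. CuO replicate 3 thus lay just above control replicate 3. Genes of all vessels had a median of -0.55 (-0.41 without CuO replicate 1), and Flt1, a receptor of vascular growth factor, had 32.8, 35 and 46.2 TPM in CuO lungs, against 54.8, 69.5 and 63.7 TPM in control lungs. Of these 17 genes, 2 lay below all controls (against 3.53%), or 4 with the length trend removed (against 8.3%). Another 2 lay above (against 9.37%), among them Ccl21a, given above. Per lung the list median was -0.46, -0.81 and -0.02 in CuO lungs and -0.03, 0.22 and -0.15 in control lungs, so the groups overlapped.

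Several stromal and metabolic genes were among the lowest in CuO. Inmt, an N-methyltransferase abundant in lung fibroblasts, had 397, 272 and 672 TPM in CuO lungs, against 1589, 2000.1 and 1589 TPM in control lungs (log2 difference -2.04, SE 0.32, limma adjusted p = 0.133), and it fell by 2.23 with the length trend removed (limma adjusted p = 0.0449). Igfbp6, which binds insulin-like growth factors, had 33, 16.2 and 39.7 TPM with CuO and 97.4, 140.4 and 195 TPM in controls (log2 difference -2.28, SE 0.41), and Crispld2, a secreted protein of lung mesenchyme, had 16.4, 14.7 and 20.3 TPM with CuO and 50.7, 54.9 and 59.5 TPM in controls (log2 difference -1.64, SE 0.25). The CuO and control lungs did not overlap, and the spread within each group was small for Crispld2. Gria1, a glutamate receptor subunit, had 0.58, 0.63 and 1.61 TPM in CuO lungs, against 4.6, 4.64 and 4.83 TPM in control lungs (log2 difference -1.59, SE 0.29), and Klf15, a factor induced by glucocorticoids, had 6.09, 4.86 and 7.02 TPM with CuO and 15.6, 19.8 and 29.4 TPM in controls (log2 difference -1.66, SE 0.31). Some low-abundance genes were lower too. Cidec, a lipid droplet protein, had 0.12, 0.67 and 1.46 TPM with CuO and 7.17, 24.7 and 2.13 TPM in controls (log2 difference -2.39). Colq, the collagen tail of acetylcholinesterase, had 0.47, 0.35 and 1.72 TPM with CuO and 14.2, 14 and 2.18 TPM in controls (log2 difference -2.36). Cox8b, a cytochrome oxidase subunit of muscle and brown fat, had 1.66, 0.86 and 1.44 TPM with CuO and 14.5, 5.73 and 7.05 TPM in controls (log2 difference -2.04). The controls spread widely for Cidec and Colq.

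Mesothelial genes had a median of -0.78 over 8 (-0.46 without CuO replicate 1), with 0.41, 0.55 and 3.69 TPM in CuO lungs, against 5.0, 7.13 and 5.11 TPM in control lungs for Upk3b. Msln, also a mesothelial gene, lay the other way with 23.9, 42.7 and 24.7 TPM with CuO and 7.02, 10.8 and 18.4 TPM in controls. Transcripts of other sources differed between lungs too. For cardiac muscle genes, whose cells line the pulmonary veins of mice, the groups overlapped and none of 9 genes separated them. The list median was -1.26, -0.12 and -1.04 in CuO lungs and 1.74, -1.27 and -0.52 in control lungs. Red cell and platelet genes had a median difference of -0.72 (-0.93 without CuO replicate 1), all 14 negative, but 1 lay below all controls (against 3.53% of all genes). Per lung the list median was -0.50, -1.39 and -0.19 in CuO lungs and 0.19, 0.265 and -0.39 in control lungs. CuO replicate 3 thus lay above control replicate 3. Hbb-bs, a globin whose reads are shared with its copy, had 1409, 1232 and 4206 TPM with CuO and 5544, 5703 and 3656 TPM in controls. The gene below all controls was Tubb1, the tubulin of platelets, with 5.16, 3.87 and 6.39 TPM in CuO lungs, against 10.5, 15.6 and 11.5 TPM in control lungs (log2 difference -1.14, SE 0.25). The part of blood content in the lower lists was not tested.

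Genes that handle copper were divided on day 7. The list of 20 had a median of 0.29, and 0.47 without CuO replicate 1. With all lungs, 4 genes lay above all controls (against 9.37% of all genes) and 1 below (against 3.53% of all genes). With the length trend removed none lay above (against 8.13% of all genes) and 1 below (against 8.3%). No gene of the list was called in any of the 3 fits. The metallothionein genes Mt1 and Mt2, whose proteins bind copper and zinc, had 281, 261 and 142 TPM in CuO lungs, against 74.7, 80.2 and 256 TPM in control lungs and 150.2, 437 and 74.6 TPM with CuO and 52, 51.4 and 375 TPM in controls, in that order. Control replicate 3 lay among the CuO lungs for both genes, and the other controls were lower. Atox1, the chaperone that hands copper to transport pumps, had 292, 143 and 179 TPM with CuO and 110.0, 142 and 127 TPM in controls, and Atp7b, 1 of these pumps, had 1.79, 3.26 and 6.67 TPM in CuO lungs, against 6.7, 8.78 and 6.93 TPM in control lungs. The first lay higher and the second lower in every CuO lung. Genes of cuproptosis and protein lipoylation, to which excess copper can bind, had a median of 0.06 (0.30 without CuO replicate 1), and none of 12 separated the groups.

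Oxidative stress genes differed with the lungs taken. Targets of NRF2, the regulator of antioxidant genes, had a median of 0.15, with 3 of 19 above all controls (against 9.37% of all genes) and 1 below (against 3.53% of all genes). Without CuO replicate 1 the median was 0.56 and 14 lay above all controls (against 38.5% of all genes). Hmox1, which breaks down haem, had 48.1, 94.2 and 52.5 TPM in CuO lungs, against 27.6, 34.6 and 45.7 TPM in control lungs (log2 difference 0.80, SE 0.33), and Ftl1, the ferritin light chain, had 4326, 4213 and 3788 TPM with CuO and 1794, 2258 and 1879 TPM in controls (log2 difference 1.06, SE 0.21). Both lay higher in every CuO lung, while Gstm1 of the same list lay lower as given above. Among iron and ferroptosis genes the median was 0.37 (0.70 without CuO replicate 1), and Slc11a1, the metal transporter of macrophage phagosomes, had 13.1, 50.1 and 24.4 TPM with CuO and 7.15, 8.64 and 12 TPM in controls. Heat shock genes had a median of -0.34, and -0.05 without CuO replicate 1, where the median of all genes was 0.26. Unfolded protein genes had a median of 0.09 (0.51 without CuO replicate 1), with 858, 848 and 896 TPM in CuO lungs, against 561, 709 and 576 TPM in control lungs for Calr, a chaperone of the endoplasmic reticulum. Of these 17 genes, Calr alone lay above all controls (against 9.37% of all genes). Herpud1 alone lay below (against 3.53%), with 36.9, 90.8 and 87.8 TPM with CuO and 120, 134 and 109 TPM in controls.

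Immediate early genes, which respond within minutes to signals, lay lower. Of 16, 8 were below all controls in every CuO lung (against 3.53% of all genes) and none above, with a median of -0.36, and -0.41 without CuO replicate 1. Dusp1, a phosphatase that ends kinase signals, had 24.9, 48.7 and 61.3 TPM in CuO lungs, against 110.4, 164 and 139 TPM in control lungs (log2 difference -1.67, SE 0.35), and it fell by 1.76 with the length trend removed (limma adjusted p = 0.0449). Fos, a subunit of AP-1, had 8.28, 16.4 and 19.1 TPM with CuO and 25.9, 43.9 and 27.7 TPM in controls (log2 difference -1.14, SE 0.33), and Klf4, a zinc finger factor, had 12.1, 20.5 and 34.3 TPM with CuO and 60.6, 48 and 55.6 TPM in controls (log2 difference -1.37, SE 0.43). CuO replicate 1 was the lowest lung for each. The p53 and senescence list had a median of 0.46 (0.53 without CuO replicate 1), with 3 genes above (against 9.37% of all genes) and 2 below all controls (against 3.53% of all genes). With the length trend removed, 5 of its genes lay above (against 8.13% of all genes) and 1 below (against 8.3%).

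Circadian genes lay on both sides of control. The median of 16 was -0.25 (0.039 without CuO replicate 1), with 2 above all controls (against 9.37% of all genes) and 3 below (against 3.53% of all genes). With the length trend removed, 4 lay above (against 8.13% of all genes) and 6 below (against 8.3%). Dbp, a circadian output factor, had 25.9, 19.4 and 23.4 TPM in CuO lungs, against 6.16, 5.6 and 3.49 TPM in control lungs (log2 difference 2.00, SE 0.55), and Bhlhe41, a circadian repressor, had 3.16, 5.45 and 9.37 TPM with CuO and 1.39, 2.02 and 1.68 TPM in controls, both above all controls in every CuO lung. Npas2, a partner in the activating complex, had 0.79, 1.39 and 1.78 TPM with CuO and 3.58, 4.4 and 2.79 TPM in controls and lay below all controls. The hour of sampling is not in the labels. Glycolysis genes had a median of 0.31 (0.71 without CuO replicate 1), and Gapdh had 1025, 1663 and 1122 TPM in CuO lungs, against 499, 695 and 665 TPM in control lungs (log2 difference 1.02, SE 0.26). Of these 18 genes, 2 lay above all controls, Gapdh among them, a share near that of all genes (9.37%), and none lay below. Nuclear-encoded respiratory chain genes had a median of 0.30, citric acid cycle genes 0.08, and sterol and fatty acid synthesis genes 0.02. Without CuO replicate 1 the 3 medians were 0.34, 0.37 and 0.30, in that order.

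CuO replicate 1 differed from the other CuO lungs in particular genes as well as in length. Mitochondrially encoded genes lay above all controls in it for 12 of 13, with a median of 1.07, against -0.52 and -0.37 in CuO replicates 2 and 3. The remaining gene, mt-Atp8, lay below all controls in every CuO lung. It had 20319, 32699 and 21271 TPM with CuO and 59768, 44647 and 38361 TPM in controls, and it counts in the mitochondrial shares given above. mt-Nd3, a subunit of respiratory complex I, had 9535, 1603 and 1430.3 TPM in CuO lungs, against 4135, 3539.8 and 3501 TPM in control lungs, and mt-Co2, a subunit of complex IV, had 617, 117 and 63.3 TPM with CuO and 149, 238 and 308 TPM in controls. Alb, the serum albumin gene of liver, had 29.8, 1.57 and 0.36 TPM with CuO and 2.68, 3.21 and 4.29 TPM in controls. Of the 6 lungs, CuO replicate 1 was the highest for mt-Nd3, mt-Co2 and Alb, and CuO replicates 2 and 3 lay below every control for them.

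The processed pseudogene Rpl17-ps3, whose reads can come from the parent ribosomal gene, had 107, 3.83 and 2.52 TPM in CuO lungs, against 5.27, 2.61 and 5.59 TPM in control lungs. On the low side, Ms4a4c, an interferon-induced membrane protein, had 8.4, 1841 and 205 TPM with CuO and 97.6, 96.8 and 319.9 TPM in controls, and Ifi204, a sensor of DNA, had 4.46, 351 and 67.4 TPM with CuO and 20.4, 19 and 88.8 TPM in controls. C7, a complement component of fibroblasts and mesothelium, had 2.92, 70.1 and 166 TPM with CuO and 143, 152 and 108 TPM in controls, and CuO replicate 1 was far below the other 5 lungs.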

How the data were processed

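The authors deposited 1 table of TPM values for 57010 Ensembl gene identifiers in 9 libraries, made per the submitters' processing notes with fastp, HISAT2, RSEM and DESeq2 on build GRCm39, with no versions or order given in the sources used here. Libraries were poly(A)-selected and stranded, per the labels' protocols. Each library sums to the same total, so depth is unknown. Symbols matched 52029 identifiers, and no coordinates of the table's build were used.

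The values were analysed as log2(TPM + 1), a pseudocount of 1, with a filter of at least 1 TPM in at least 3 libraries, in R 4.3.3 with limma 3.58.1. The model held 1 mean for each group and used the 9 libraries together, with moderated variances that follow abundance and Benjamini-Hochberg adjustment over all 15487 tested genes at 0.05. The spread is thus pooled over CuO, control and CuO_TTM. An exact permutation test of 3 lungs against 3 cannot go below p = 0.1, so none is given. The fit was repeated without CuO replicate 1, and after removing each library's loess trend on log2 transcript length (longest transcript of the GRCm38 annotation, available for 98.3% of tested genes), which was added after seeing the data. The procedure was tested on simulated data.

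Groups and replicate numbers come from the sample titles. The gene lists and members were chosen with earlier results of these data known, and a list is described by its median and its counts, with no test. Genes were named by rule: the 10 higher and 10 lower genes with the smallest p, and with the largest difference, among those without overlap and with a mean of at least 1 TPM; all genes called without CuO replicate 1; in each list the 3 genes with the lowest p; the 10 highest and 10 lowest of CuO replicate 1 against the other CuO lungs with a mean of at least 5 TPM; and a fixed set of lung, stress and matrix genes. Not every gene that met a rule is named in the text, and the choice among them followed no stated rule. Other scalings, filters, pseudocounts, moderation, weights, the replicate block and the removal of each library were tried as alternatives.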

Additional observations from a re-analysis of the deposited data

How the results depend on the processing

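The count of called genes depended on the setting more than the values did. With all libraries it was 0 under quantile normalization, with Scgb1a1 left out of the total, with a pseudocount of 0.1, robust moderation, only genes averaging 5 TPM or more, no abundance trend, or CuO and control fitted alone. It was 7 with median-ratio scaling (Aurka, Ccnb1, Cdca8, Col1a1, Col1a2, Plk1 and Psrc1), 3 with no filter, 340 with library weights (309 higher, 31 lower, with CuO replicate 1 weighted at 0.09) and 34 with the length trend removed. Leaving out 1 library gave 0 to 35, and 35 came from leaving out CuO replicate 1. Starting from those 35, the count was 0 with quantile normalization and with Scgb1a1 left out, 11 with median-ratio scaling and 19 with no filter. It was 21 with genes averaging 5 TPM or more, 21 with no abundance trend, 321 with library weights and 13 with the length trend removed. A pseudocount of 0.1 gave 30 and robust moderation 42. Fitting CuO and control alone gave 46, of which 19 were among the 35. Leaving out a further library gave 0 to 324, with 18 without control replicate 3, 324 without CuO_TTM replicate 1 and 0 without any of the others. The cause of these moves was not tested.

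The main fit did not treat the replicate numbers as pairs. Deviations from the group means correlated at -0.10, -0.17 and -0.37 between lungs of the same number. Between lungs of different numbers they correlated at -0.05 to 0.27. Deviations within a group of 3 are tied to each other, so these values cannot show whether the numbers mark pairs or batches. With the replicate number as a block, 3 genes were called with all libraries (Trem2, Gpnmb and Ear1) and 0 without CuO replicate 1.

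Leaving out Scgb1a1 moved the median of all genes from 0.03 to -0.11. Of the list medians, that of cardiac muscle was -0.67 and moved to 0.21 without control replicate 1 (-1.23 to 0.21 over single libraries left out), that of the respiratory chain was 0.30 and moved to 0.14 with Scgb1a1 left out, and that of ribosomal proteins was 0.28 and moved to 0.033 with quantile normalization. Every other list median moved by less than the spread between lungs. Several of them still changed sign when 1 library was left out. Among these, the range was -0.27 to 1.63 for interferon-stimulated, -0.22 to 1.25 for chemokine and -0.13 to 0.76 for acute phase genes. It was -0.125 to 0.56 for NRF2 targets, -0.26 to 0.51 for unfolded protein genes and -0.25 to 0.73 for cytokine and inflammasome genes. Sign changes among named genes touched values near 0 or carried by 1 lung. Sftpc was at 0.11, and at -0.057 with Scgb1a1 left out, -0.20 with library weights and -0.071 with the length trend removed. Scgb1a1, at the top rank of most libraries, was at 0 with quantile normalization. Ms4a4c was at -0.10 with Scgb1a1 left out and -0.058 with the length trend removed. Alb was at -0.017 with Scgb1a1 left out, -0.27 with a pseudocount of 0.1 and -1.01 with library weights, Ighv8-8 at -0.16 with that pseudocount, and Rpl17-ps3 at -0.11 with library weights. With 1 library left out, the log2 difference spanned -0.23 to 0.14 for Ager, -0.21 to 0.51 for Sftpc, -1.22 to 1.03 for Alb, -1.73 to 2.08 for Ms4a4c, -0.77 to 2.58 for Rsad2, -0.92 to 2.15 for Ifit2, -0.81 to 2.20 for Ifi204, -0.73 to 2.31 for Cxcl10, -0.64 to 2.46 for Ccl2, -0.55 to 2.94 for Cxcl13, -1.36 to 0.28 for mt-Co2, -1.29 to 0.074 for mt-Nd3, -0.36 to 2.10 for Rpl17-ps3, -0.36 to 1.67 for Igkv10-96 and -0.22 to 2.31 for Ighv8-8. No other named gene changed sign under any alternative. TPM keep no depth, so the precision of single low values is unknown.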
